A study of Mus musculus with 12 samples.

Results

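The comparison described here sets Dicer-null mouse mesenchymal stem cells that had received an siRNA against Nr6a1 beside Dicer-intact cells that had received a control siRNA. It used 6 of the 12 libraries of the study, 3 in each group, and every gene with at least 1 FPKM in at least 3 of the 12 libraries, which was 11801 of 21881 listed genes. FPKM is a fragment count scaled to the length of the transcript and to the number of mapped fragments in the library. The knockdown group, KO_siNr6a1, was a Dicer -/- line transfected with an siRNA targeting Nr6a1, and the intact group, WT_siCtrl, was a Dicer f/f line, in which both Dicer1 alleles carry loxP sites, transfected with a nontargeting siRNA. Both groups were immortalized, clonal lines of bone marrow mesenchymal stem cells on a C57BL/6 background, were transfected at 20 nM and were harvested after 48 h for polyA RNA sequencing. The groups thus differed in Dicer genotype, in the clonal line and in the siRNA, and these 3 differences cannot be told apart in this comparison. Whether the 3 libraries of a group came from separate cultures is not said in the labels, and the p-values therefore reflect the variation among these libraries alone, part or all of which could be technical. The question is what still differed from intact cells once Nr6a1 had been knocked down.

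Dicer cuts precursor hairpins into mature microRNAs, which guide Argonaute proteins to complementary sites in messenger RNAs, mostly through bases 2 to 8 of the microRNA, the seed. The let-7 family is abundant in differentiated cells and represses a group of genes used in embryonic growth, among them Hmga2 and the Igf2bp family. Nr6a1, also called germ cell nuclear factor, is an orphan nuclear receptor expressed in the mid-gestation embryo and in germ cells. Marrow stromal cells are known for their ability to form bone, fat and cartilage and for their secretion of matrix and cytokines.

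The let-7 site is shown first because several of the largest rises carried it. In the sequences below, from the RefSeq miRNA table (GRCm38.p6) and from GENCODE M21 transcripts (GRCm38), capitals mark the seed of let-7g or the matching 8-base site in a 3' UTR. Mature let-7g lies at chr9:106178846-106178867 on the plus strand, and all of the target sites lie on minus strands.
let-7g-5p: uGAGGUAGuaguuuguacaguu
Igf2bp2, 3' UTR position 1313 of 1784, chr16:22059462-22059491: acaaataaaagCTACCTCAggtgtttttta
Igf2bp3, 3' UTR position 548 of 2119, chr6:49086776-49086805: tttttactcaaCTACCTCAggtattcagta
Igf2bp1, the first of 3 sites, 3' UTR position 1715 of 6337, chr11:95961767-95961796: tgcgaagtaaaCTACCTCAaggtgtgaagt
Hmga2, 3' UTR position 58 of 3014, chr10:120364213-120364242: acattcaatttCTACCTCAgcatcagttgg
Nr6a1, the first of 3 sites, 3' UTR position 371 of 4457, chr2:38727438-38727467: gacaaagacaaCTACCTCAatggaaacagg

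Nr6a1 remained above the level of intact cells after the knockdown. It measured 3.43, 4.302 and 3.31 FPKM in the 3 knockdown libraries and 1.16, 0.945 and 1.25 FPKM in the 3 intact libraries, and the groups did not overlap. The log2 fold change, always knockdown minus intact on the log2(FPKM + 1) scale, was 1.14 (SE 0.12, limma adjusted p = 0.000414). As a check of the labels, Dicer -/- cells with the control siRNA had 11.7 ± 1.32 FPKM and those given a let-7g duplex had 4.22 ± 1.04 FPKM (SD, n = 3 each), against 3.68 ± 0.539 FPKM in the knockdown group. Dicer1 measured 3.58, 2.82 and 3.04 FPKM in the knockdown libraries against 8.24, 5.58 and 5.93 FPKM in the intact ones, a log2 fold change of -0.86 (SE 0.16, adjusted p = 0.00394). The FPKM counts the whole gene, including exons that a deletion leaves in place, so this value is no measure of the deletion itself. An exact two-sided permutation test of each of these genes gave p = 0.1, the smallest p that 3 against 3 libraries allow.

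Relative sequencing depth, read from the most common ratio between libraries of values under 0.3 FPKM, spanned 1 to 1.41 times the shallowest library, and 15733 to 16600 genes were above 0 in each library. At an adjusted p under 0.05, 5771 genes (48.9% of those tested) were called different. Of these, 2831 (24%) were higher and 2940 (24.9%) lower in the knockdown group. With a log2 fold change of at least 1 as a further condition, 1543 genes remained (13.1%), 670 of them higher (5.68%) and 873 lower (7.4%). The 3 values of one group all lay above those of the other for 6979 genes (59.1%), and 5720 of these were also called (48.5%). The median log2 fold change over all tested genes was -0.007, so that the shares of 24% and 24.9% are the background against which the gene groups below are read. A change in the number of cells of a type and a change in RNA per cell cannot be told apart in such bulk libraries.

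**Figure D1:**
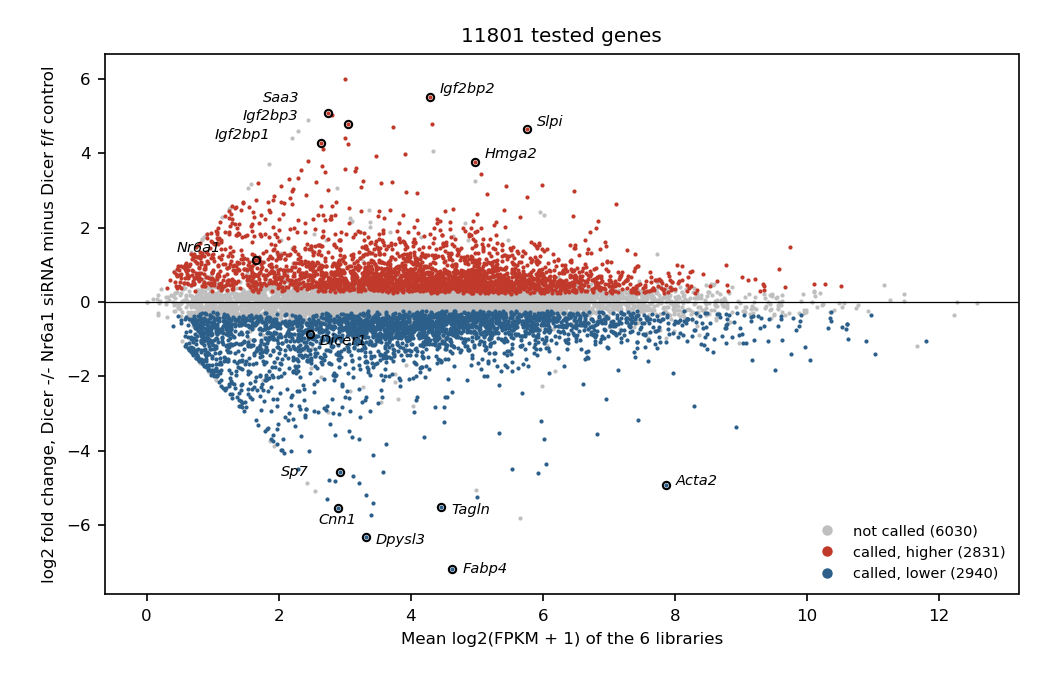
Mean log2(FPKM + 1) of the 6 libraries (x axis) against the log2 fold change of the knockdown over the intact group (y axis) for the 11801 tested genes, each point 1 gene. Called genes are red (higher) or blue (lower); of the labelled genes Igf2bp2 is the highest at 5.51 and Fabp4 the lowest at -7.19, with Nr6a1 at 1.14 and Dicer1 at -0.86.

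The RNA-binding proteins of the Igf2bp family gave the largest rises among the let-7 targets, and none of the 3 passed 2.12 FPKM in an intact library. These proteins bind and stabilise messenger RNAs in the fetus, Igf2 among them. Igf2bp2 measured 139, 119 and 136 FPKM in the knockdown libraries and 1.59, 2.12 and 2.04 FPKM in the intact libraries (log2 5.51, SE 0.11, adjusted p = 1.15e-06). Igf2bp3 measured 44.1, 41.02 and 42.8 FPKM against 0.4001, 0.874 and 0.493 FPKM (log2 4.79, adjusted p = 2.76e-06). Igf2bp1, whose 3' UTR holds 3 such sites, measured 25.7, 24.7 and 28.8 FPKM against 0.375, 0.452 and 0.408 FPKM (log2 4.28, adjusted p = 1.92e-06). Within each of these genes the lowest knockdown library exceeded the highest intact library by far more than the spread inside either group.

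The chromatin and transcription regulators of the let-7 list followed. Hmga2, an architectural protein that bends AT-rich DNA, measured 107, 108 and 130.3 FPKM in the knockdown libraries against 9.11, 7.44 and 6.205 FPKM (log2 3.77, SE 0.15, adjusted p = 9.71e-06). Its relative Hmga1 averaged 73.6 against 20.1 FPKM (log2 1.81). The AT-rich interaction factors Arid3a and Arid3b averaged 9.49 against 1.298 FPKM and 5.16 against 1.74 FPKM (log2 2.19 and 1.19). The zinc finger factors Plagl2 and Hic2 gave log2 fold changes of 2.13 and 1.98, and the repressor E2f6 gave 1.86. Prtg, a neural and mesodermal cell surface protein of the immunoglobulin superfamily, measured 13.5, 13.7 and 15.96 FPKM against 1.36, 1.89 and 1.43 FPKM (log2 2.59). In each of these genes all 3 knockdown values lay above all 3 intact values.

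Both D-type cyclins of the list and Cdk6 were higher. Ccnd2, a D-type cyclin that activates Cdk4 and Cdk6, measured 72.9, 58.4 and 86.9 FPKM against 13.3, 13.98 and 12.1 FPKM (log2 2.37, adjusted p = 4.55e-05). Ccnd1 averaged 78.6 against 30.6 FPKM (log2 1.31) and Cdk6 9.45 against 2.68 FPKM (log2 1.52). Among receptors and signalling proteins, Fas averaged 25.6 against 7.51 FPKM, Nras 59.8 against 34.8 FPKM, Insr 6.01 against 3.24 FPKM and Igf1r 13.3 against 9.32 FPKM, with log2 fold changes of 1.63, 0.77, 0.73 and 0.47.

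In all, 26 of the 36 tested let-7 targets were higher and 4 were lower, with a median log2 fold change of 0.92. The lower genes included Cpeb1, which controls polyadenylation in the cytoplasm (0.205, 0.162 and 0.222 FPKM against 1.78, 2.897 and 2.33), the phosphatase Cdc25a and Dicer1. Those that missed the threshold included Myc (34.8, 44.3 and 43.8 FPKM against 44.7, 42.1 and 33.1), Rrm2, Irs2, Tgfbr1 and Nap1l1, with log2 fold changes from -0.19 to 0.15. Lin28a, Lin28b, Trim71, Mycn, Gdf6 and Acvr1c did not reach the expression filter. Members with and without a perfect 8-base let-7 site had both more higher than lower genes: 16 of the 22 with a site were higher and 2 lower (median 0.79), and 10 of the 14 without one were higher and 2 lower (median 1.02). The list was put together with earlier results of these data known, so that its counts describe it and do not test it.

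**Figure D2:**
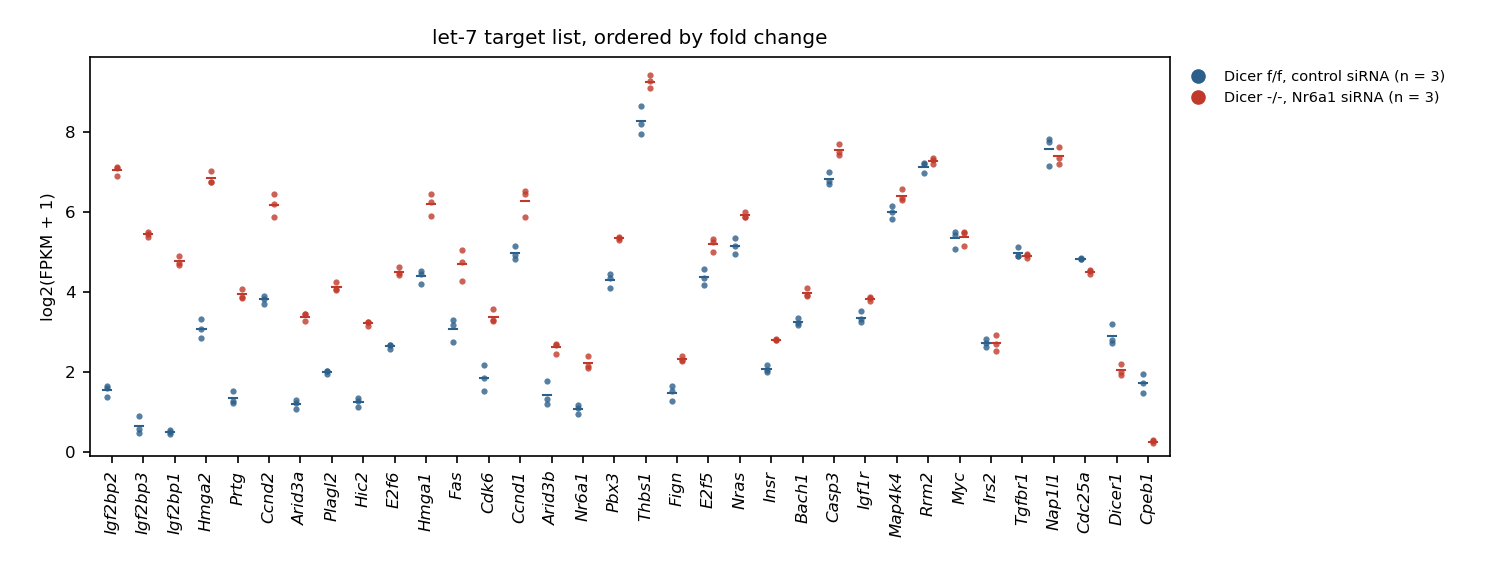
Level of 34 of the 36 tested let-7 targets in each library, as log2(FPKM + 1), with a point per library and a bar at the group mean; genes run from the largest rise (Igf2bp2) to the largest fall shown (Cpeb1). The groups lie apart for most genes on the left and overlap for Rrm2, Myc and Irs2.

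Across all tested genes, 11219 (95.1%) had an annotated 3' UTR, of which 24.7% were called higher and 25% lower. Of the 409 genes with the 8-base let-7g site, 147 (35.9%) were higher and 77 (18.8%) lower, with a median log2 fold change of 0.14. Among the 8317 genes without even the 6-base core of the site, 22.5% were higher and 26% lower. With 8-base sites the shares were close to those of let-7g for miR-16-5p (34.3% higher and 19.5% lower of 508), miR-25-3p (34.7% and 20.8% of 317) and miR-125b-5p (33.8% and 19.3% of 606). They lay near the background for miR-21a-5p (25.4% and 25% of 256) and miR-155-5p (27% and 26% of 366), and miR-9-5p, a microRNA best known from neurons, had 28.3% and 26.4% of 512 genes. The share called higher lay between 25.4% and 38.2% in the 26 sets looked at, and the highest, above let-7g, was that of miR-99a-5p with 34 genes. With 7-base sites (bases 2 to 8 of the microRNA) let-7g had the highest share of the 26, 35.7% of 1137 genes, against 31.5% for miR-125b-5p, 29.3% for miR-16-5p and 28.3% for miR-25-3p. A gene with a long 3' UTR falls into several sets, so that these shares are not independent of one another.

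Among the genes that make microRNAs or act with them, 3 of 20 tested were higher (15%) and 5 lower (25%), with a median of 0.16. Mov10, an RNA helicase that associates with Argonaute, measured 56.03, 59.5 and 58.8 FPKM in the knockdown libraries against 7.77, 9.05 and 12.05 FPKM (log2 2.5, SE 0.15, adjusted p = 3.98e-05). Tnrc6a, the scaffold that links Argonaute to deadenylases, averaged 40.4 against 15.9 FPKM (log2 1.3), and the Dicer partner Tarbp2 61.2 against 33.99 FPKM (log2 0.84). Besides Dicer1, the helicase Ddx6, on chromosome 9, was lower (50.9 against 89.2 FPKM, log2 -0.79), as was the Argonaute gene Eif2c1 (7.38 against 11.2 FPKM, log2 -0.55). Both counts moved with single libraries: 6 were higher without the intact replicate 0, and 3 were lower without any one of the 3 knockdown libraries.

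The contractile genes of smooth muscle, which stromal fibroblasts express as they turn into myofibroblasts, held several of the largest falls of the comparison. Acta2, smooth muscle actin, measured 41.5, 46.02 and 37.1 FPKM in the knockdown libraries and 1386, 1343 and 1119 FPKM in the intact libraries (log2 -4.91, SE 0.12, adjusted p = 2.05e-06). Tagln, the actin-binding transgelin, measured 2.25, 2.36 and 2.200 FPKM against 157, 187 and 109.8 FPKM (log2 -5.51, adjusted p = 5.91e-06). Cnn1, calponin, measured 0.0277, 0.219 and 0.0599 FPKM against 48.3, 55.1 and 46.4 FPKM (log2 -5.53, adjusted p = 1.15e-06). The groups were far apart in all 3 genes, with Cnn1 under 1 FPKM in every knockdown library. Actg2, a second smooth muscle actin, averaged 0.666 against 69.99 FPKM (log2 -5.41), and the myosin light chain Myl9 13.7 against 299 FPKM (log2 -4.36). The kinase of that light chain, Mylk, averaged 3.46 against 28.3 FPKM (log2 -2.71) and the tropomyosins Tpm1 and Tpm2 gave -1.56 and -2.2.

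The whole contractile list had 11 lower and 3 higher of 22 tested members, with a median of -0.32. The difference was uneven inside the list. Cald1 (276 against 219.7 FPKM), the transcription factor Srf that drives many of these genes (37.8 against 27.7 FPKM, log2 0.44, adjusted p = 0.0124) and its coactivator Mkl2 (8.62 against 5.56 FPKM) were higher. The 8 members that missed the threshold included the cytoskeletal genes Actn1 (log2 -0.01), Csrp1 (0.06) and Smtn (-0.13). Myocd and Myh11 did not reach the filter. The count of higher members was 1 without knockdown replicate 0 and 0 without knockdown replicate 2. Tagln, Cnn1 and Tpm1 lie on chromosome 9, most of whose genes were lower (shown by the plot of medians in gene order), and 8 of the 19 members on other chromosomes were lower.

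Srf binds the CArG box, a short AT-rich palindrome, and 4 of the 19 contractile genes with a RefSeq promoter (21.1%) held a match on either strand within 250 bases before to 50 bases after the start. The share was 1.63% of 32851 promoters in the table and 1.63% of the 9237 tested genes with a promoter. Among called genes past 1 log2 unit it was 3.06% of 653 lower genes and 1.96% of 511 higher genes. The matches are shown with 10 bases on each side and the box in capitals, since the 4 genes differed in what they did.
Myl9, 161 bases upstream, chr2:156775303-156775312 (GRCm38.p6): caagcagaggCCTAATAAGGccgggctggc
Vcl, 227 bases upstream, chr14:20929171-20929180: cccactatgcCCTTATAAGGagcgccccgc
Cnn2, 56 bases upstream, chr10:79988544-79988553: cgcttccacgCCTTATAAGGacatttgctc
Srf, 82 bases upstream, chr17:46556235-46556244, the first of 2 matches: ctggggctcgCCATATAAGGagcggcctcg
Fhl1, a muscle LIM protein outside the list, 102 bases upstream, chrX:56779581-56779590: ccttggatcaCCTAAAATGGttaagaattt
Myl9 and Fhl1 were among the large falls (-4.36 and -5.73), Vcl was lower by a small amount (-0.3, adjusted p = 0.0458), Cnn2 missed the threshold (-0.29, adjusted p = 0.107) and Srf was higher (0.44). Fhl1 measured 0.311, 0.527 and 0.532 FPKM against 87.3, 80.7 and 62.1 FPKM. A match in this window is a description and not a site of binding. The contractile list was chosen to hold Srf and its regulators, so that its share of CArG boxes describes the list and does not test it. No match was listed for Acta2, Tagln, Cnn1 or Actg2. Their promoters may not all be among the 19, so that this does not show that these genes lack the box. The extended half-site TCAAGGTCA, a sequence that Nr6a1 is known to bind, was searched in the same windows and on both strands. It occurred in 0.292% of tested promoters, in 4 of the 653 lower genes (0.613%) and in none of the 511 higher genes. The TEAD motif GGAATG occurred in 14.2% of tested promoters, 16.2% of the higher and 14.9% of the lower genes. It was in 8 of the 19 contractile promoters (42.1%). In the list of YAP pathway and target genes 13 of 18 promoters held it (72.2%). That list was chosen to hold YAP targets and the TEAD genes, so that its share describes the list and does not test it.

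Genes of the bone lineage were lower as a group, with 12 lower and 3 higher of 18 tested members and a median of -1.59. Sp7, or osterix, the transcription factor that commits cells to bone, measured 0.404, 0.752 and 0.531 FPKM in the knockdown libraries and 21.9, 53.7 and 40.2 FPKM in the intact libraries (log2 -4.58, SE 0.30, adjusted p = 5.28e-05). The osteocalcin gene Bglap measured 0.126, 0.717 and 0.323 FPKM against 18.6, 48.2 and 57.1 FPKM (log2 -4.81, adjusted p = 0.00014), and its near-identical neighbour Bglap2, with which it can share reads, gave -4.78. The intact replicate 0 was the lowest of its group for both genes, while the groups did not overlap. Ibsp, bone sialoprotein, averaged 0.138 against 18.8 FPKM and the parathyroid hormone receptor Pth1r, on chromosome 9, 1.105 against 25.6 FPKM. Alpl, the alkaline phosphatase that releases phosphate for mineral, measured 40.9, 95 and 47.8 FPKM against 336, 668 and 623 FPKM (log2 -3.16). The homeobox genes Msx2 and Dlx5 averaged 0.00832 against 6.16 FPKM and 13.2 against 61.3 FPKM.

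Runx2, which acts upstream of Sp7, was lower by less (17.9, 20.9 and 19.3 FPKM against 33.5, 38.8 and 33.6, log2 -0.83, adjusted p = 0.00066). Spp1, osteopontin, was the most abundant member in both groups (2515 against 2435 FPKM on average) and missed the threshold, with overlapping groups (log2 0.05, adjusted p = 0.78). The higher members included Twist2 (41.1 against 11.1 FPKM, log2 1.8), a repressor of Runx2 activity, and Atf4 (355 against 204 FPKM). In the cartilage list 5 of 16 members were tested. Sox9, the factor that specifies cartilage, measured 25.5, 38.4 and 34.6 FPKM against 5.69, 7.92 and 8.16 FPKM (log2 2.03, adjusted p = 0.000216), while the cartilage collagen gene Col2a1 averaged 2.100 against 6.41 FPKM (log2 -1.26) and Acan did not reach the filter. Sox9 stayed called without each library in turn.

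Fabp4, the fatty acid binding protein of fat cells, showed the largest fall of all named genes. It measured 0.788, 1.11 and 1.296 FPKM in the knockdown libraries and 324, 337 and 245 FPKM in the intact libraries (log2 -7.19, SE 0.15, adjusted p = 1.15e-06). Lpl, the lipase that frees fatty acids from lipoproteins, measured 35.1, 64.6 and 51.8 FPKM against 200.5, 376 and 376 FPKM (log2 -2.61). Plin4, Fabp5 and the preadipocyte factors Zfp423 and Ebf1 were lower too, with log2 fold changes of -2.04, -1.72, -1.93 and -1.73. Cebpa was lower (11.2, 25.8 and 18.2 FPKM against 31.5, 79.6 and 70.8) and Cebpb higher (97.6, 186 and 191 against 32.8, 65.8 and 64.6). These are members of 1 transcription factor family that act late and early in fat differentiation, and in both the replicate 0 libraries were the lowest of their group. Pparg, the central regulator of that programme, measured 27.1, 35.1 and 37.98 FPKM against 43.5, 47.5 and 36.3 FPKM, with overlapping groups (log2 -0.34, adjusted p = 0.106). The adipocyte list had 7 lower and 2 higher of 16 tested members (median -0.42), and Plin1 and Cd36 did not reach the filter. Adiponectin (Adipoq) did not reach it either, with 0.926, 9.91 and 3.01 FPKM in the intact libraries and listed at 0 in all 3 knockdown libraries.

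**Figure D3:**
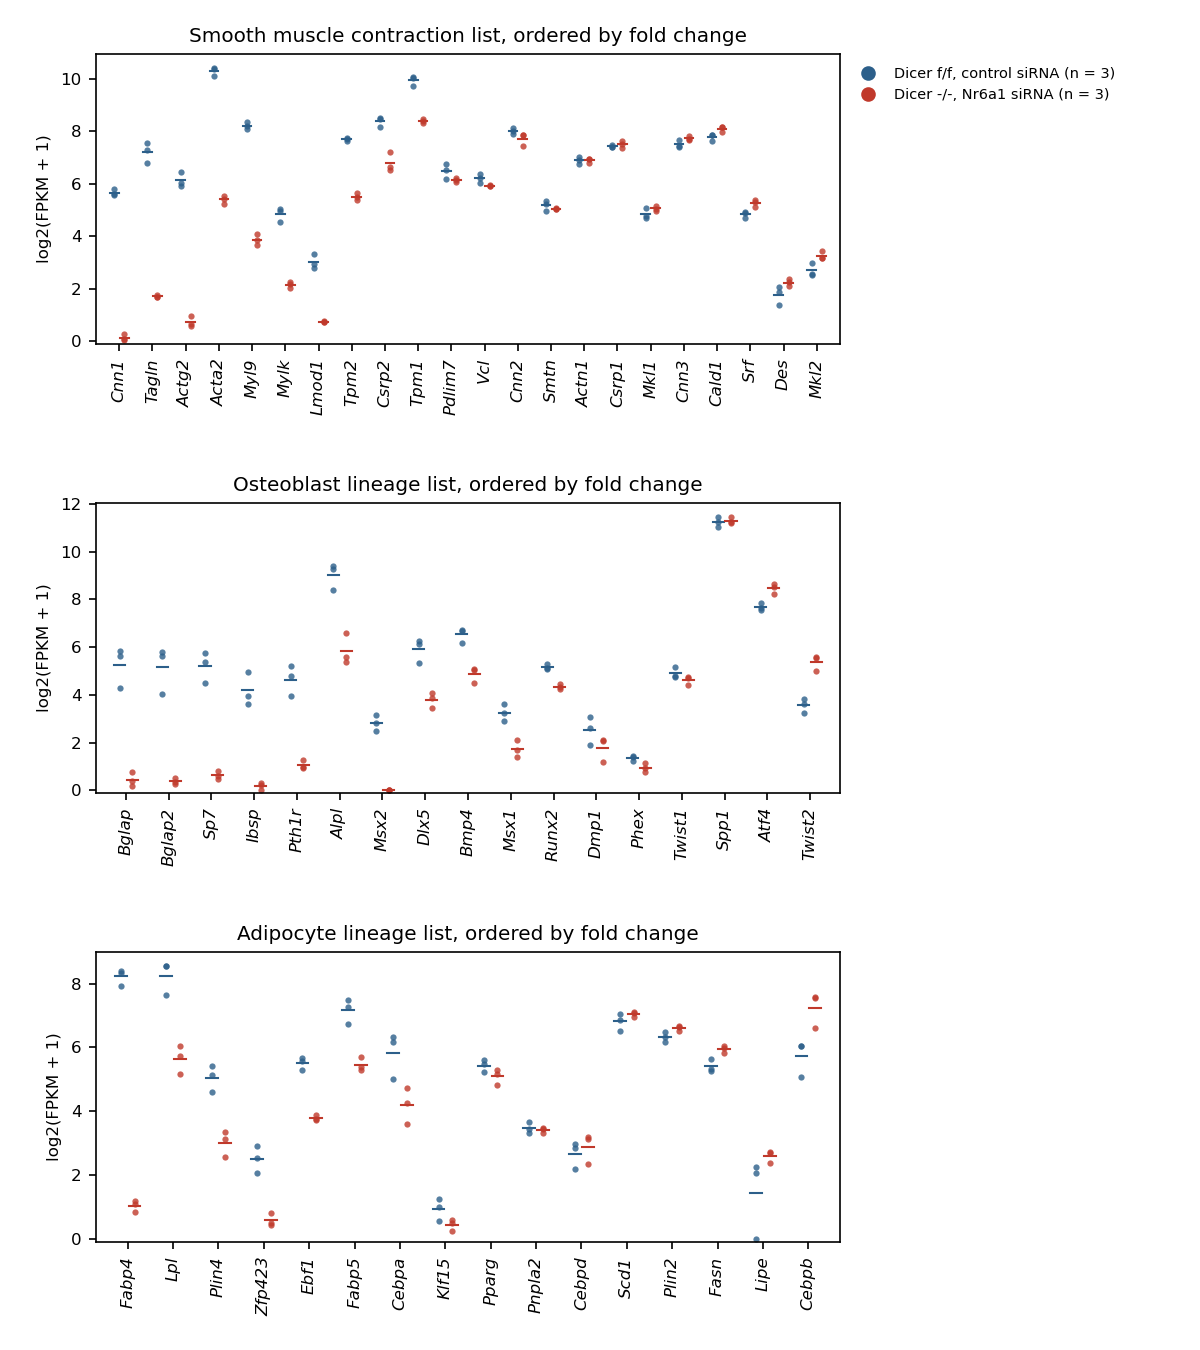
Level of tested members of the contractile, bone and fat lists (all but 1 of the bone list) in each library, as log2(FPKM + 1), with a point per library and a bar at the group mean. The falls at the left of each panel separate the groups by several log2 units, while Actn1, Spp1 and Pparg overlap between the groups.

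Stromal markers differed in both directions, with 5 higher and 6 lower of 18 tested. Mcam, a surface marker of stromal progenitors and pericytes, measured 1.57, 1.89 and 1.34 FPKM against 52.6, 40.2 and 40.5 FPKM (log2 -4.12, adjusted p = 5.91e-06), and lies on chromosome 9. Anpep, or CD13, measured 87.04, 117 and 88.5 FPKM against 9.81, 12.6 and 14.5 FPKM (log2 2.89). Kitl and Cxcl12, which support blood stem cells in the marrow, averaged 23.5 against 55.7 FPKM and 422 against 870.3 FPKM. The markers Eng, Itgb1 and Pdgfrb missed the threshold and were expressed in both groups (42.04 against 53.8 FPKM, 357 against 418 FPKM and 72.5 against 65.3 FPKM), whereas Thy1 was listed at 0 in all 6 libraries.

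Fibrillar collagen and matrix genes changed in composition. In the collagen and cross-linking list 17 of 33 tested members were lower and 10 higher, with a median of -0.38. The chains of type I collagen, the main protein of bone, were lower: Col1a2 measured 384, 385 and 400.4 FPKM against 1396, 1261 and 1476 FPKM (log2 -1.82, adjusted p = 2.77e-05) and Col1a1 346, 387 and 343 FPKM against 785, 647 and 901 FPKM (log2 -1.1). Type III and V chains were higher: Col3a1 measured 241, 253 and 180.0 FPKM against 54.6, 60.7 and 51.5 FPKM (log2 1.98) and Col5a1 averaged 253 against 94.5 FPKM (log2 1.41). The type VI chains Col6a1 and Col6a2 and the basement membrane chains Col4a1 and Col4a2 were lower, with log2 fold changes from -1.29 to -0.95. Of the lysyl oxidases that cross-link collagen, Loxl1, on chromosome 9, averaged 17.8 against 238 FPKM and Loxl2 12.9 against 39.3 FPKM, while Lox itself missed the threshold (406 against 391 FPKM).

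Matricellular proteins and proteoglycans split in the same manner, with 10 higher and 13 lower of 33. Tnc, tenascin C, measured 11.9, 16.02 and 7.78 FPKM against 259.9, 388 and 267 FPKM (log2 -4.59, adjusted p = 3.55e-05) and Postn, periostin, 7.43, 17.1 and 5.23 FPKM against 225, 263 and 176 FPKM (log2 -4.48). Biglycan (Bgn) averaged 119 against 829.8 FPKM, whereas fibromodulin (Fmod), a related small proteoglycan, measured 25.6, 34.9 and 21.4 FPKM against 1.47, 3.11 and 2.34 FPKM (log2 3.1). The laminin chains Lama5 and Lamc1 and the large proteoglycan Vcan were higher, by 2.33, 2.02 and 1.82. Among matrix proteases and their inhibitors 8 were higher and 10 lower of 26. Mmp2, a gelatinase, averaged 5.46 against 24.8 FPKM and the protease inhibitor Serpine2 0.821 against 16.6 FPKM, while the plasminogen activator Plau and its receptor Plaur averaged 67.4 against 22.2 FPKM and 60.4 against 27.5 FPKM. Of adhesion molecules, Cdh11, a cadherin of mesenchyme, averaged 17.9 against 1.91 FPKM (log2 2.7) and the integrin chain Itgb3 4.88 against 0.559 FPKM (log2 1.91). The integrin and adhesion list held 7 higher and 5 lower of 20, and 4 higher without any one of the knockdown libraries or without intact replicate 1.

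Secreted mediators of inflammation were among the largest rises. Saa3, an acute phase protein, measured 42.4, 45.9 and 28.6 FPKM in the knockdown libraries and 0, 0.131 and 0.395 FPKM in the intact libraries (log2 5.07, SE 0.21, adjusted p = 1.13e-05). Lbp, which carries bacterial lipopolysaccharide to its receptor, measured 35.7, 59.2 and 27.6 FPKM against 0.108, 0.334 and 0.243 FPKM (log2 5.02). The complement gene C3 averaged 42.4 against 4.53 FPKM. The alarmin Il33 measured 29.5, 31.7 and 17.9 FPKM against 0.515, 0.552 and 0.529 FPKM (log2 4.12, adjusted p = 2.49e-05). For each of these 4 genes the lowest knockdown library was far above the highest intact library.

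Neutrophil and monocyte attractants were higher: Cxcl5 measured 113, 131 and 141 FPKM against 10.99, 17.8 and 13.2 FPKM, Cxcl1 averaged 189 against 21.1 FPKM and Ccl2 242 against 52.95 FPKM, with log2 fold changes of 3.13, 3.15 and 2.17. The ligand Lif and the receptor chains Il6ra, Osmr and Il6st of the interleukin-6 family were higher as well (1.83, 2.23, 1.47 and 1.12). Il1rn, the natural antagonist of interleukin-1, went the other way and measured 0.584, 1.02 and 0.444 FPKM against 29.2, 115 and 61.4 FPKM (log2 -5.18, adjusted p = 0.000158). The chemokine Cxcl14 and the cytokines Il15 and Il18 were lower as well. In the cytokine list 16 of 26 tested members were higher and 8 lower (median 0.95). In the acute phase and NF-kB list 15 of 25 were higher and 3 lower (median 0.64), among the higher ones Relb, Nfkb1, Nfkb2, Nfkbia and Tnfaip3 with log2 fold changes from 0.56 to 1.56. The lower ones were Ptx3, Serpina3g and C1s, and 5 were lower without intact replicate 0.

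The interferon-induced genes did not move together. Of 40 tested, 14 were higher and 12 lower, with a median of -0.03, and 9 were higher without intact replicate 1 or without knockdown replicate 0. Antigen presentation genes of MHC class I were lower: B2m, its light chain, measured 639, 671 and 544 FPKM against 1588, 2155 and 1751 FPKM (log2 -1.56, adjusted p = 0.000224), and the heavy chains H2-K1 and H2-D1, whose reads can be shared with other class I genes, averaged 241 against 637 FPKM and 131 against 505 FPKM. The antiviral gene Rsad2 was higher (3.72, 4.33 and 4.28 FPKM against 0.1402, 0.229 and 0.1597, log2 2.12), as was the transcription factor Irf1 (56.3 against 23.3 FPKM). Ifit1, Ifit2 and Ifit3, antiviral RNA sensors, were lower, with log2 fold changes of -0.74, -1.81 and -0.68.

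The AP-1 motif, TGANTCA on either strand, occurred in 7.81% of all promoters in the table and in 6.04% of the 9237 tested ones. It was in 11.7% of the promoters of 511 genes called higher by at least 1 log2 unit and in 7.66% of those of 653 genes called lower by as much. In the cytokine list 5 of 18 promoters held it (27.8%). Shares above that of all tested promoters were also seen in lists without a common rise. These were 8 of 34 in the interferon list (23.5%), 3 of 14 in the integrin and adhesion list (21.4%) and 3 of 19 contractile promoters (15.8%). In the list of genes induced by ERK signalling 0 of 18 promoters held it. The presence of the motif is a description of the sequence only. The genes of AP-1 subunits differed in direction. Jun was lower (10.3, 11.1 and 9.62 FPKM against 22.7, 18.7 and 21.6, log2 -0.95). Fosl2 was higher (47.96 against 38.4 FPKM on average, log2 0.31, adjusted p = 0.0144). Fos (log2 1.36), Junb (0.66), Fosb (0.08) and Fosl1 (-0.51) missed the threshold.

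Growth factor genes divided between ligands and receptors of different families. Egfr, the receptor of epidermal growth factor, measured 19.5, 16.6 and 15.1 FPKM against 4.097, 3.499 and 4.09 FPKM (log2 1.88, adjusted p = 5.28e-05), and its ligand Ereg 8.61, 7.47 and 9.53 FPKM against 1.03, 0.789 and 0.763 FPKM (log2 2.35). Fgfr1, a receptor of fibroblast growth factors, was lower (5.33, 5.92 and 5.91 FPKM against 21.3, 25.2 and 28.01, log2 -1.94), as were the ligands Pdgfc and Pdgfd (-1.12 and -1.7). The receptor Met and the ligands Vegfc and Fgf21 were higher (1.68, 1.54 and 2.47). In that list 11 were higher and 10 lower of 30. Genes induced by ERK signalling and its feedback inhibitors had 11 higher and 2 lower of 30 (median 0.59). The phosphatase Dusp6 averaged 13.97 against 5.36 FPKM, Dusp5 21.1 against 9.35 FPKM, Spry1 24.98 against 9.85 FPKM and the ETS factor Etv1 1.98 against 0.301 FPKM. The lower genes were Jun and Spry4 (0.397 against 1.19 FPKM, log2 -0.65). Spry2, Etv4 and Etv5 missed the threshold (log2 0.12, 0.35 and -0.15). With the replicate number as a term in the fit, 18 genes of the ERK list were higher.

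Members of the insulin and IGF pathway had 4 higher and 6 lower of 12 tested. The adaptors Grb10 and Grb14, which restrain the insulin receptor, averaged 16.5 against 68.1 FPKM and 1.93 against 20.1 FPKM (log2 -1.99 and -2.81). Igf1 and the receptors Igf2r, Insr and Igf1r were higher, with log2 fold changes from 0.47 to 1.22. Of 12 tested imprinted and fetal genes 6 were higher and 4 lower. Plagl1 averaged 0.504 against 6.91 FPKM and the growth inhibitor Cdkn1c 1.43 against 10.5 FPKM, whereas the placental gene Phlda2 and the retrotransposon-derived Peg10 averaged 3.39 against 0.205 FPKM and 104 against 39.7 FPKM.

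In the TGF-beta and BMP pathway 17 of 36 tested members were lower and 5 higher, with a median of -0.26. Fstl3, a follistatin-like protein that binds activin, measured 0.0451, 0.0409 and 0.0115 FPKM against 20.97, 23.7 and 22.2 FPKM (log2 -4.49, adjusted p = 1.15e-06). The ligands Bmp4, Tgfb2 and Tgfb3 were lower (-1.67, -0.82 and -1.14), together with Ltbp2, Smad1, Smad6, Id1 and Id3. The coreceptor Tgfbr3 measured 99.6, 104 and 96.8 FPKM against 14.2, 21.2 and 16.6 FPKM (log2 2.48, adjusted p = 3.57e-05) and the receptor Bmpr1a averaged 52.2 against 25.7 FPKM. Id2, unlike Id1 and Id3, was higher (86.2 against 42.1 FPKM).

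In the Wnt list 10 of 26 were lower and 6 higher. The secreted antagonist Sfrp2 measured 122, 222 and 127 FPKM against 1333, 1717 and 1675 FPKM (log2 -3.36, adjusted p = 7.17e-05), while its relative Sfrp1 averaged 29.1 against 12.1 FPKM. The ligand Wnt5a and its receptor Ror2 were lower (-1.74 and -2.01). Among YAP pathway and target genes 7 were higher and 8 lower of 23. The targets Ankrd1 and Ctgf averaged 35.6 against 98.6 FPKM and 33.1 against 84.7 FPKM, and the DNA-binding partner Tead4 9.72 against 0.679 FPKM (log2 2.67). The Ctgf values of the intact libraries were spread widely, at 132, 81.4 and 40.2 FPKM (adjusted p = 0.039). Cyr61 missed the threshold (196 against 190 FPKM, log2 0.03, adjusted p = 0.943), and the list members Axl and F3 were higher (log2 0.72 and 1.25). These YAP counts fell to 4 higher without knockdown replicate 1 or 2 and to 5 lower without intact replicate 1 or knockdown replicate 1 or 2. Axon guidance genes had 12 higher and 13 lower of 33, with the largest differences in the receptor Ephb2 (0.0293 against 12.8 FPKM, log2 -3.74) and the ligand Ntn1 (39.7 against 3.34 FPKM, log2 3.24).

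Among Hox genes, which keep the positional identity of stromal cells, the posterior members Hoxc13 and Hoxa13 were lower. Hoxc13 measured 0.717, 1.05 and 1.13 FPKM against 10.2, 15.98 and 14.8 FPKM (log2 -2.88) and Hoxa13 averaged 0.415 against 6.299 FPKM. Hoxc12 and Hoxa11 were lower too (log2 -1.32 and -0.58), whereas Hoxa10, Hoxc10 and Hoxc11 missed the threshold (0.12, 0.16 and 0.05) and Hoxa9 was higher (0.73). In all, 3 of 20 were higher (15%) and 5 lower (25%), against 24% and 24.9% of all tested genes. The lower count was 3 without intact replicate 2 or knockdown replicate 2. Of 27 tested nuclear receptors, the family of Nr6a1, 8 were higher and 4 lower. Rarb and Rarg, receptors of retinoic acid, averaged 2.602 against 0.529 FPKM and 44.5 against 23.1 FPKM, and Rora and Thra 0.521 against 2.52 FPKM and 21.2 against 47.7 FPKM. The higher count was 5 without intact replicate 1 or without knockdown replicate 1 or 2.

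**Figure D4:**
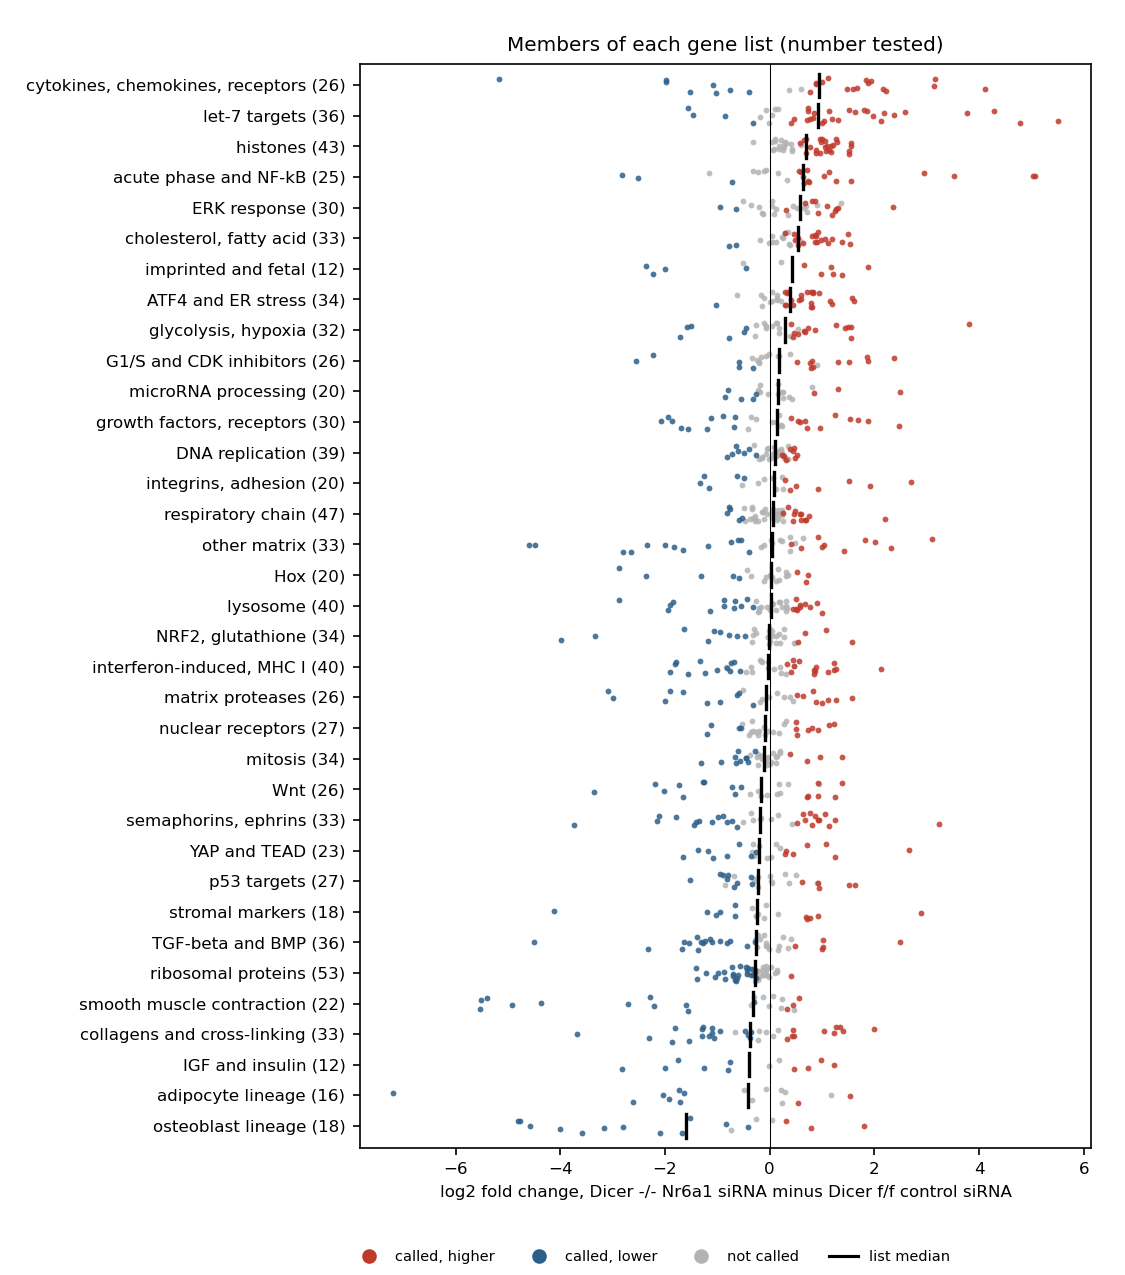
log2 fold change of each tested member (x axis, 1 point per gene) for 35 gene lists (rows, with the number of tested members), ordered by the list median, which is the black bar. The cytokine list has the highest median (0.95), with the let-7 targets next at 0.92, and the osteoblast list the lowest (-1.59).

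Cell cycle genes showed no common direction. Among 34 tested mitosis genes 4 were higher and 10 lower, with a median of -0.11, and 6 of the 30 on chromosomes other than 9 were lower. Anln, a scaffold of the cleavage furrow that lies on chromosome 9, averaged 42.6 against 107 FPKM (log2 -1.31), the phosphatase Cdc25b 77.5 against 29.3 FPKM and the kinase Aurka 101 against 51.8 FPKM. In the DNA replication list 8 of 39 were higher (20.5%) and 7 lower (17.9%). The higher count was 5 without knockdown replicate 0 or 1 and 4 without knockdown replicate 2. Of the G1 and S phase genes 10 were higher and 5 lower of 26. Ccnd3 averaged 201 against 53.9 FPKM (log2 1.88). The Cdk4 and Cdk6 inhibitor Cdkn2d, on chromosome 9, measured 6.76, 10.97 and 8.79 FPKM against 45.7, 56.4 and 67.4 FPKM (log2 -2.55, adjusted p = 9.89e-05). Of 27 tested p53 targets 5 were higher and 9 lower, and 5 were lower without knockdown replicate 1. The ubiquitin ligase Mdm2 and the death-promoting Pmaip1 were lower (28.9 against 50.96 FPKM and 1.45 against 6.06 FPKM), and Btg2, which restrains proliferation, was higher (21.04 against 7.08 FPKM).

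Replication-dependent histone genes had 25 higher and none lower of 43 tested, with a median of 0.70 and 1 lower without knockdown replicate 1. Hist1h4i, a histone H4 gene, measured 17.7, 35.3 and 24.3 FPKM against 5.36, 11.3 and 7.59 FPKM (log2 1.56, adjusted p = 0.00529). These transcripts mostly lack polyA tails and have near-identical copies, so that their values in polyA libraries are uncertain.

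Genes of the cholesterol and fatty acid list were higher in 19 of 33 tested cases and lower in 2, with a median of 0.54. The sterol sensor Insig1 measured 115, 126 and 134 FPKM against 54.3, 57.99 and 59.6 FPKM (log2 1.11, SE 0.087, adjusted p = 0.000107). The transcription factor Srebf2 averaged 148 against 79.8 FPKM. The 2 lower genes were Ebp and Scap, the escort of that factor, with -0.64 and -0.78 on the log2 scale. Targets of Atf4 and of endoplasmic reticulum stress had 22 higher and 1 lower of 34 (median 0.38). Trib3 measured 21.5, 27.3 and 36.9 FPKM against 7.55, 10.1 and 8.55 FPKM (log2 1.58), Chac1 averaged 40.1 against 12.3 FPKM and Atf4 itself 355 against 204 FPKM. The lower gene was Manf, on chromosome 9 (56.1 against 115 FPKM), and 2 were lower without knockdown replicate 1.

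Glycolysis and hypoxia genes had 14 higher and 6 lower of 32 (median 0.29). Aldoc, an aldolase found mainly in brain, measured 16.99, 21.6 and 19.97 FPKM against 0.368, 0.402 and 0.641 FPKM (log2 3.8, adjusted p = 5.91e-06). The hexokinase Hk2, the phosphofructokinase Pfkp and the lactate transporter Slc16a1 were higher by 1.45, 1.55 and 1.5. Pdk1 and Epas1, the second hypoxia-inducible factor, were lower (-1.5 and -1.7). In the respiratory chain list 12 of 47 were higher and 5 lower, with 9 lower without intact replicate 0 and 3 lower without knockdown replicate 2. Of the 5 lower genes Sdhd, Cox5a and Cox7a2 lie on chromosome 9.

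Antioxidant genes of the NRF2 list had 4 higher and 9 lower of 34, with 5 of the 29 on other chromosomes than 9 lower. Sod3, the extracellular superoxide dismutase, averaged 0.0343 against 15.5 FPKM, and the glutathione enzymes Gpx7 and Gstm2 0.501 against 14.3 FPKM and 71.2 against 23.6 FPKM. Lysosomal genes had 10 higher (25%) and 12 lower (30%) of 40, and 6 higher without knockdown replicate 1 or 2. The cathepsins Ctsh, Ctsk and Ctsc were lower, with log2 fold changes of -2.88, -1.91 and -1.85, and Ctsl was higher (1.0). Of 53 ribosomal protein genes 25 were lower and 1 higher (median -0.28), with 15 lower without knockdown replicate 2. Rplp1 and Rpsa, both on chromosome 9, averaged 1298 against 3434 FPKM and 534 against 1399 FPKM. Processed pseudogenes can take reads from ribosomal protein genes, and the treatment of such reads in the authors' counting is not known here, which leaves these values uncertain.

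Other genes among the 15 largest rises encode secreted proteins or belong to no list. Slpi, an inhibitor of leukocyte proteases, measured 256, 313 and 249 FPKM against 8.11, 9.68 and 12.4 FPKM (log2 4.64, adjusted p = 5.91e-06). The kininogens Kng1 and Kng2, which are near-identical neighbours and can share reads, gave 4.71 and 3.98. Penk, the precursor of enkephalins, measured 30.4, 56.9 and 26.96 FPKM against 0.664, 1.42 and 0.323 FPKM (log2 4.41). Atp6v1c2, a subunit of the proton pump, and Daam2, a formin-like protein of Wnt signalling, averaged 35.4 against 0.985 FPKM and 42.5 against 1.87 FPKM. Mir1894 was listed at 0 in the intact libraries and at 61.7, 94.3 and 43.5 FPKM in the knockdown libraries. This and Mir1905 are entries for short hairpins. FPKM is scaled to transcript length, so that few reads can give a high value for them, and these values are uncertain. Mir1905 measured 121, 93.9 and 98.4 FPKM against 0, 0 and 53.6 FPKM (log2 4.79, SE 1.46, adjusted p = 0.0307).

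Among the 15 largest falls outside the lists, Dpysl3, a cytoskeletal protein of growing axons, measured 0.109, 0.161 and 0.0977 FPKM against 91.1, 95.3 and 78.8 FPKM (log2 -6.31, adjusted p = 1.15e-06). Islr, an immunoglobulin-like protein of stromal cells on chromosome 9, measured 0.0505, 0.0989 and 0.0364 FPKM against 17.98, 74.1 and 49.1 FPKM (log2 -5.29). Gng11, a G protein subunit, averaged 0.7298 against 50.3 FPKM and Kctd12, an auxiliary subunit of GABA receptors, 0.763 against 45.8 FPKM. Snord65, a small nucleolar RNA entry, was listed at 0, 0 and 143 FPKM in the knockdown and 214, 247 and 144 FPKM in the intact libraries, so that its groups were separated by less than 2 FPKM (adjusted p = 0.0485).

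The genes of chromosome 9 were lower along its whole length. Of 648 tested genes there, 454 (70.1%) were lower and 35 (5.4%) higher, with a median of -0.64 and 89% of values below 0. On all other chromosomes together, 22.3% of 11063 genes were lower and 25.1% higher, with a median of 0.02. Each of the 13 blocks of about 50 neighbouring genes on chromosome 9 had a median between -0.77 and -0.50, against -0.53 to 0.83 for 222 blocks elsewhere. In each library the chromosome 9 genes made up 4.71% of the summed FPKM in the knockdown group and 7.03% to 7.16% in the intact group. The other Dicer -/- groups of the study had 4.58% to 4.75% with the control siRNA and 4.61% to 4.77% with let-7g. Chromosomes X, 10 and 19 had medians of -0.30, -0.29 and -0.28. On them 45.5%, 42.1% and 39.8% of the tested genes were lower and 12.7%, 11% and 13.3% higher. This pattern was found after the values had been seen, and its part in the results on single genes was not tested. Chromosome copy number was not analysed here, so that a difference in gene dosage between the clonal lines and a difference in the regulation of these genes cannot be told apart. Besides the genes whose place is given above, the lower genes Cdc25a, Il18, Smad6, Pdgfd, Rora, Scap and Ctsh lie on chromosome 9, as do Prtg and Arid3b, which were higher. The lower genes Kitl, Fstl3, Ctgf, Plagl1, Col6a1, Col6a2 and Mdm2 lie on chromosome 10, as do Hmga2, Arid3a, Igf1 and Dusp6, which were higher. Fhl1, which was lower, lies on chromosome X. The genes placed here on chromosomes 10 and X are not a complete list, and those on chromosome 19 are not given. Over the chromosomes other than 9, 2768 genes were called higher and 2464 lower in a fit without chromosome 9.

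**Figure D5:**
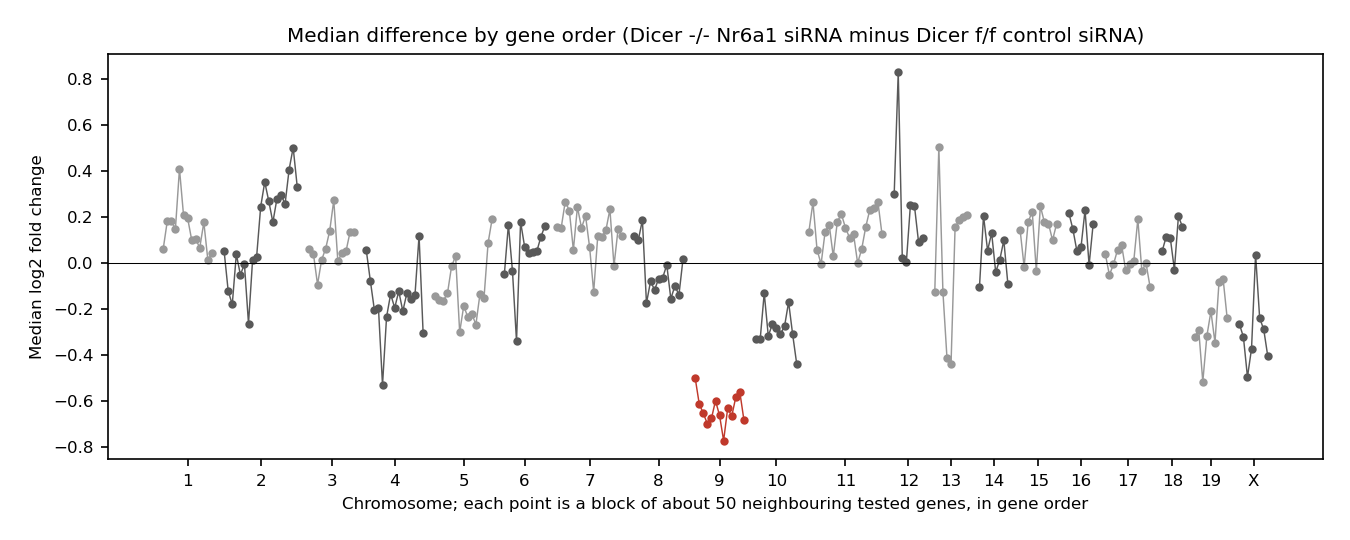
Median log2 fold change (y axis) of blocks of about 50 neighbouring tested genes in gene order along each chromosome (x axis), each point 1 block and chromosome 9 in red. All 13 blocks of chromosome 9 lie between -0.77 and -0.50, and the highest block, at 0.83, is on chromosome 12.

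Markers of other cell types were near 0, apart from single genes. Of 16 listed blood cell markers 3 were tested and Cd74, the invariant chain of MHC class II, was higher (46.7, 62.9 and 43.3 FPKM against 7.48, 10.7 and 14.3). The monocyte markers Cd14 and Cd68 were above 1 FPKM in all 6 libraries and missed the threshold (8.28 against 7.32 FPKM and 1.71 against 1.39 FPKM). The list summed to 55.5 to 74.7 FPKM in the knockdown libraries and 16.9 to 26.7 FPKM in the intact ones, while the pan-leukocyte gene Ptprc averaged 0.000695 against 0.00319 FPKM and Cd3e was at 0 in all. Of 11 endothelial markers only Flt1 was tested (7.27, 7.62 and 6.65 FPKM against 0.198, 0.255 and 0.199, log2 2.75), and the lineage genes Pecam1 and Cdh5 averaged 0.04101 against 0.0389 FPKM and 0.00655 against 0.00762 FPKM. The endothelial sums were 6.82 to 7.80 and 0.613 to 0.744 FPKM. The 11 epithelial markers summed to 0.701 to 1.16 FPKM in the knockdown and 2.18 to 3.10 FPKM in the intact libraries, with only Krt19 tested (0.118 against 1.85 FPKM). The 11 neural markers summed to 4.08 to 4.67 FPKM in the knockdown and 2.73 to 3.61 FPKM in the intact libraries. The part of these markers in the other results was not tested.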

How the data were processed

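The deposited table gives FPKM values, which the authors made from polyA RNA-seq reads. The submitters' processing notes name TopHat 1.2.0, Cufflinks 1.0.3 and the genome build mm9. FPKM carry no read counts, so that the absolute depth is unknown, and relative depth was read from low values. From the 12 columns, genes with at least 1 FPKM in at least 3 libraries were kept. limma 3.58.1 in R 4.3.3 was fitted to log2(FPKM + 1) of the 6 libraries compared, with a variance trend, 4 residual degrees of freedom and Benjamini-Hochberg adjustment over the 11801 tested genes. Adding 1 understates the change of low genes. Genes were called at an adjusted p under 0.05.

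The genes named are Nr6a1, Dicer1, the 15 largest rises and the 15 largest falls among called genes with groups that do not overlap, and up to 5 called members of each of 41 lists by smallest adjusted p. Other list members are named for their role and were chosen after their values were seen. The members and lists were chosen with earlier results of these data known. A few of these genes are not reported here. Of 34 microRNAs looked up 26 were found. 3' UTRs came from the longest coding GENCODE M21 transcript and promoters from RefSeq. The fit was tested on simulated data. Alternatives covered the pseudocount, filter, scaling, weights, all 12 libraries, a replicate block and leaving out each library. No rule for a closer look was applied, since groups of 3 are not tested for outliers and there is 1 contrast.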

Additional observations from a re-analysis of the deposited data

How the results depend on the processing

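Between 4272 genes (without knockdown replicate 2) and 7799 (estimated library weights) were called, against 5771, and no gene called in both changed direction under any of the 20 alternatives. Leaving out a library gave 4272 to 5861 called genes. The share of calls that were higher stayed between 45.1% (upper quartile scaling) and 52.9% (without the genes of chromosome 9, an alternative added after the data had been seen). Scaling moved the median of all genes to between -0.04 and 0.02. Of 3814 pairs of a named gene and an alternative, 3792 kept direction and call, 22 lost the call and none reversed. The losses were in Snord65, Mir1905 and Tubb3. A mean of at least 5 FPKM, which tests fewer genes, left 1004 genes past 1 log2 unit, and the number of genes past 1 log2 unit, lower, was 527. It also left 5 lower cytokines, 5 higher and 7 lower interferon genes, 5 lower Wnt genes, 7 higher growth factor genes, 5 higher nuclear receptors and 6 higher histones. Library weights gave 13 higher replication genes and quantile scaling 13 lower ribosomal genes. Without chromosome 9, 5 YAP, 6 mitosis and 5 NRF2 genes were lower, because the others lie on it. With 6-base sites 31% of let-7g genes were higher. Where no cause is named, the cause was not tested. Leaving out each library in turn gave these ranges: 9 to 15 higher interferon genes, 5 to 8 lower YAP genes, 5 to 8 higher nuclear receptors, 4 to 9 higher replication genes, 5 to 12 lower p53 targets, 6 to 11 higher lysosomal genes and 15 to 25 lower ribosomal genes. Depth limits genes under about 1 FPKM, where 1 read weighs most.

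With the replicate number as a block 6787 genes were called, 3351 higher and 3436 lower, and 18 instead of 11 ERK genes were higher. Nr6a1 gave 1.14 (adjusted p = 0.00137), and Dicer1 -0.86 (adjusted p = 0.00138). Deviations of same-numbered libraries correlated at 0.37, 0.16 and 0.09 across genes for numbers 0, 1 and 2, and knockdown replicate 1 correlated best with intact replicate 2 (0.19), so that the limit of 0.1 for every pair was missed and the libraries were not treated as paired. Whether a number marks a shared day or batch is not said in the labels, and the replicate 0 libraries of all groups had Ddx3y in common. Egr1, Fos and Ier2 of the ERK list were highest in replicate 1 of both groups. Egr1 measured 30.9, 118 and 28.9 FPKM in the knockdown and 17.6, 64.5 and 21.5 FPKM in the intact libraries. These genes were picked out after their values were seen.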

Other observations

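A stretch of chromosome 12 was the highest of all blocks of neighbouring genes. The 50 tested genes from Taf1b to 3110039M20Rik had a median log2 fold change of 0.83, and the block holds Id2, Rsad2 and Rrm2, with 1.01, 2.12 and 0.15. The block next in height, on chromosome 13, runs from Hist1h2bl to Hist1h4b, with a median of 0.51 over 50 genes, and lies in the histone cluster. These blocks were picked out after their values were seen.

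The Y-linked gene Ddx3y was at 0.542 to 0.594 FPKM in the 4 libraries numbered replicate 0, among them 0.586 FPKM in the knockdown and 0.594 FPKM in the intact library, and at no more than 0.0625 FPKM in the other 8 libraries of the study. The Y-linked gene Uty had the same pattern near 0, with 0.0305 to 0.04999 FPKM in the replicate 0 libraries and no more than 0.00973 FPKM in the others. The Y-linked genes Eif2s3y and Kdm5d did not have it and were at no more than 0.01604 FPKM in all 12 libraries. Xist was at 21.8 to 52.3 FPKM in all 12.

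Of 159 tested small RNA entries 13 were called, 6 higher and 7 lower, and 5918 genes were called when such entries were left out, an alternative added after the data had been seen. Klf4, the only tested member of the pluripotency and germline list, averaged 23.9 against 9.21 FPKM (log2 1.27).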
